A study of Mus musculus with 9 samples.

Results

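Autophagy is the process by which a cell wraps part of its own content in a membrane and hands it to the lysosome for breakdown. The 37 mouse genes described here are its core machinery and its cargo receptors, a listed set of gene symbols that all matched an Ensembl identifier in the mm10 annotation. They are 37 of the 55487 genes in the count tables, and all 37 had enough reads to be among the 13453 genes tested. The libraries came from J774A.1, a mouse macrophage line that originates from a tumour. Cells carried either sgRNA 11 or sgRNA 15, which are guide RNAs against Slc12a9, a member of the cation-chloride cotransporter family, or a safe control guide. There were 3 libraries for each of the 3 groups, 9 in all. The label for genotype gives the cells of both Slc12a9 guides as knockdown and the safe cells as WT, while the design text speaks of knockout. Whether the cells with each guide are a pool or a clone is not given in the sources used here. All groups share the same medium history: growth with 10% serum and with glutamine, then 6 h without either before lysis. No library was kept in complete medium, so a response to that medium change itself cannot be read from these data.

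In textbook accounts, autophagy starts when the ULK kinase complex is released from the nutrient sensor mTORC1 and activates a lipid kinase complex built around Beclin 1. Vesicles carrying ATG9 and the lipid transfer protein ATG2 then supply membrane, and a pair of ubiquitin-like conjugation systems attach the ATG8 proteins (LC3 and GABARAP) to it. Cargo receptors such as p62 bind ATG8 proteins on the membrane and ubiquitin on the cargo. Macrophages use the same machinery to clear microbes and to decorate phagosomes, and several of its genes are known targets of the lysosomal transcription factors TFEB and TFE3. The level of an mRNA does not measure how much material passes through autophagy.

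Gene counts summed to 17617390 to 22622692 with sgRNA 11, 16405296 to 23521052 with sgRNA 15 and 18817850 to 25613961 with safe sgRNA. All 8 macrophage markers had at least 10 counts in every library, and their summed level was 8892 to 9175 CPM with sgRNA 11, 7137 to 7217 CPM with sgRNA 15 and 5121 to 5292 CPM with safe sgRNA (CPM: counts scaled to library size, with the TMM factors of edgeR). Lyz2 alone, the lysozyme gene, averaged 4513 CPM with sgRNA 11, 3567 CPM with sgRNA 15 and 1727 CPM with safe sgRNA and made up most of the difference in that sum. Of the 8 markers, 7 rose with sgRNA 11 and Cd68 fell (log2 -0.17), while with sgRNA 15, 5 rose, Fcgr1 and Spi1 fell (log2 -0.34 and -0.10) and Csf1r was not called (log2 -0.02, edgeR adjusted p = 0.488). Of all tested genes, 33.3% rose and 32.4% fell with sgRNA 11, and 32.2% and 30.7% with sgRNA 15. The part of the macrophage markers in the results below was not tested. Summed within each type, the markers of T cells, B cells, epithelial cells, fibroblasts and endothelial cells reached at most 3.71 CPM in any library. Slc12a9 mRNA averaged 65.3 CPM with sgRNA 11, 49.97 CPM with sgRNA 15 and 48.4 CPM with safe sgRNA, so its mean was not lower in the libraries labelled with either guide. It was called higher with sgRNA 11 (log2 0.43, 1.35-fold, edgeR adjusted p = 6.45e-13) and was not called with sgRNA 15 (log2 0.05, edgeR adjusted p = 0.426, and log2 -0.06 once GC content and exon length were corrected for, or -0.02 without safe replicate 1). Directions below are those of the labelled libraries. The labels do not say that replicates were separate cultures, so p-values measure the spread between these libraries, which may be technical. In bulk RNA, fewer cells of a kind and less RNA per cell cannot be told apart.

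Most of the autophagy genes stood higher with both Slc12a9 guides than with safe sgRNA. With sgRNA 11, 25 of the 37 rose, 6 fell and 6 were not called, at an edgeR quasi-likelihood adjusted p below 0.05. With sgRNA 15 the numbers were again 25, 6 and 6. Among all tested genes, 65.8% were called with sgRNA 11, 33.3% higher and 32.4% lower. The same shares with sgRNA 15 were 62.9% called, 32.2% higher and 30.7% lower. Among the 9781 genes averaging 5 CPM or more, 3839 were higher and 3715 lower with sgRNA 11, and 3646 and 3596 with sgRNA 15. A call by itself was therefore common in these libraries. The median member stood at log2 0.30 with sgRNA 11 and 0.29 with sgRNA 15, against 0.01 with each guide over all tested genes. The centre over all genes depends on the TMM scaling. With scaling by library size only, 4842 tested genes were higher and 4036 lower with sgRNA 11, and 4798 and 3705 with sgRNA 15. Among the members that scaling gave 26 higher and 6 lower, and 27 and 5. The median absolute log2 fold change of the members was 0.35 with sgRNA 11 and 0.37 with sgRNA 15, against 0.33 and 0.29 over all tested genes. For the mean of both guides, 26 members rose and 6 fell, where 68% of tested genes were called, 34.7% higher and 33.3% lower.

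Both guides were set against the same 3 safe libraries, so their results are not independent of each other. With both guides 23 members rose (26% of all tested genes did) and 5 fell (25.7% did). Those that fell were Atg2b, Atg4d, Atg9b, Atg16l1 and Gabarapl1. Atg9a was called in opposite directions, as were 1.88% of tested genes. Atg5, Atg13, Tax1bp1 and Uvrag were called with 1 guide, and Atg3, Atg4a, Gabarapl2 and Nrbf2 with neither. In 23 members all 6 libraries of the Slc12a9 guides lay above all 3 safe libraries, and in 5 they lay below, while 26.3% and 26.5% of tested genes did so. An absolute log2 fold change of 0.5 or more was called in 14 members with sgRNA 11 and in 15 with sgRNA 15, where 27.6% and 23.9% of tested genes reached it.

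**Figure D1:**
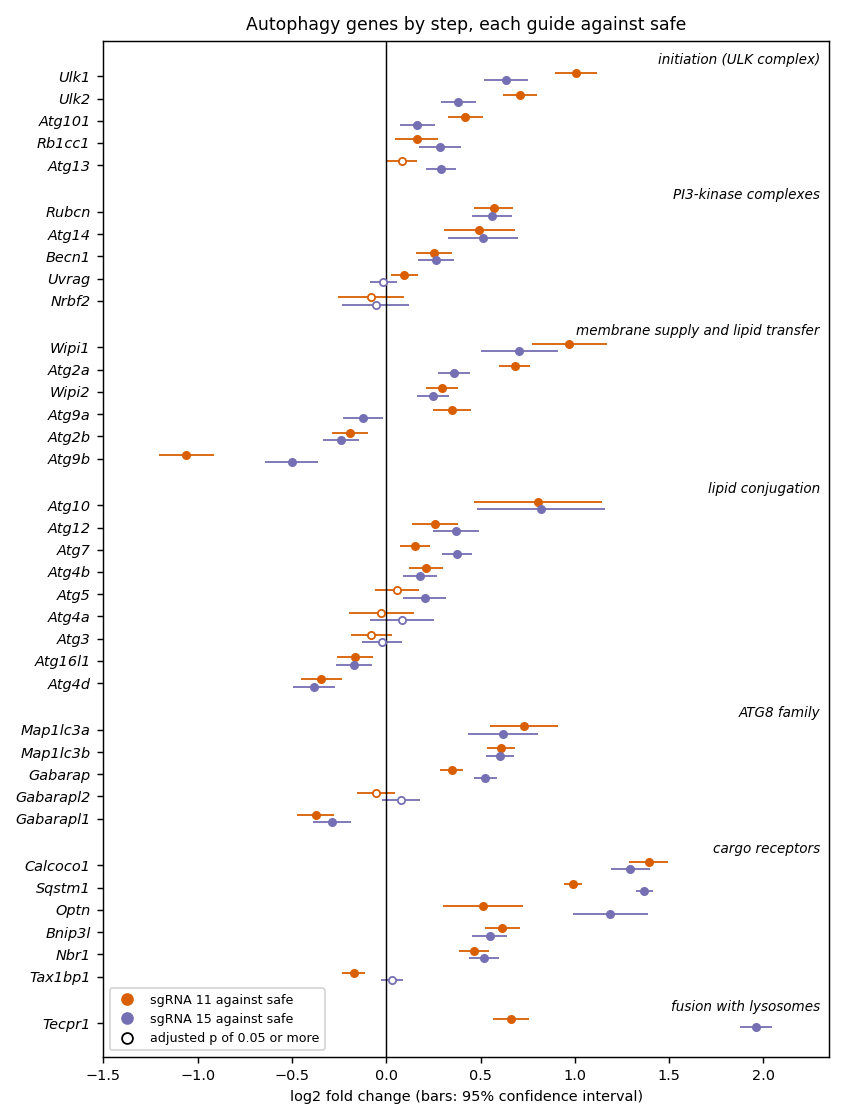
Log2 fold change of each of the 37 autophagy genes against safe sgRNA, grouped by step, with sgRNA 11 above sgRNA 15 in each pair; bars are 95% confidence intervals and open points have an adjusted p of 0.05 or more. Calcoco1, Sqstm1 and Tecpr1 lie farthest to the right, Atg9b farthest to the left, and Atg9a has its points on either side of 0.

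Promoter sequences are shown because many members stood higher together. RefSeq promoters of GRCm38.p6, from 250 bases before to 50 bases after each annotated start, were found by symbol for 31 of the 37 members. Atg12, Atg16l1, Becn1, Bnip3l, Map1lc3a and Rb1cc1 had no entry. Printed here, 5′ to 3′ on the gene's strand, are the 250 bases before the start for the members with the largest smaller rise of the 2 guides, Calcoco1 (chr15:102722179-102722428, minus strand) and Sqstm1 (chr11:50210821-50211070, minus strand). Beside them are the only members with a CLEAR core, the letters TCACGTGA by which TFEB is known to bind, Atg3 (chr16:45158579-45158828, plus strand) and Nrbf2 (chr10:67285282-67285531, minus strand). Capitals mark the CLEAR core, the E-box CACGTG, or the antioxidant response element TGACNNNGC.
Calcoco1: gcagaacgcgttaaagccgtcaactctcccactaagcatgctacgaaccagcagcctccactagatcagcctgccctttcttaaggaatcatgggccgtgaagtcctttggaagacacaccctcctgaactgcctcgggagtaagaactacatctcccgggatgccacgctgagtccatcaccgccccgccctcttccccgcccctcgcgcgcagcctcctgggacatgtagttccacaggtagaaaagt
Sqstm1: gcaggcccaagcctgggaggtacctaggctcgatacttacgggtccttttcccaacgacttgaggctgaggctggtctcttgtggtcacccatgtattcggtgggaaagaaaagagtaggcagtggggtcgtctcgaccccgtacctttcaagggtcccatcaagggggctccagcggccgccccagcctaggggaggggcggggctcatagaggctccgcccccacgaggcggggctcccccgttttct
Atg3: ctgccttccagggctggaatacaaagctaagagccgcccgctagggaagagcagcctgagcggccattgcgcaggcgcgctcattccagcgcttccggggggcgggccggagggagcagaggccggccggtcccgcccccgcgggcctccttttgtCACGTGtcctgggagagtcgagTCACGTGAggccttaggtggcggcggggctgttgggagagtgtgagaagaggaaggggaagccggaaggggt
Nrbf2: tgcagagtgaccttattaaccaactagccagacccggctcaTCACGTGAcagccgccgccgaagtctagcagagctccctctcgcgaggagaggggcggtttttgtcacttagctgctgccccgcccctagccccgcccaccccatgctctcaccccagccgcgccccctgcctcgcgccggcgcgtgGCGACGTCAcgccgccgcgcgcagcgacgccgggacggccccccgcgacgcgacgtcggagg
Each motif was searched on both strands, and the E-box lies within the CLEAR core, so each CLEAR match is an E-box match too. Shares are of genes with the motif in any of their promoters, out of 27025 genes. The CLEAR core was in 2 of the 31 matched members and in 1.13% of all genes, and the members holding it, Atg3 and Nrbf2, were called with neither guide. The E-box was in 6 members (Atg3, Atg5, Atg7, Atg14, Nrbf2 and Rubcn) and in 8.09% of all genes. For Atg7, Atg14 and Rubcn it lay in a promoter whose start is inside the annotated gene. The promoter at the 5′ end of Rubcn held none of the motifs. The antioxidant element was in 5 members (Atg13, Map1lc3b, Nrbf2, Tax1bp1 and Ulk2) and in 13.99% of all genes. The letters TGATGNAA, by which ATF4 complexes are known to bind, were in 0 members and in 4.51% of all genes. A match is a run of letters in this window and not a measured binding site. Variants of these letters and sequence outside the window were not searched, so a gene without a match may still hold a site.

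Counts by step are to be read beside the shares of all tested genes. With sgRNA 11 these were 33.3% higher and 32.4% lower, and with sgRNA 15, 32.2% and 30.7%. Single steps hold too few genes to be set apart from these shares. Initiation is the first step. Of the 5 genes of the ULK complex, 4 rose and 1 was not called with sgRNA 11, and all 5 rose with sgRNA 15. Ulk1 (ENSMUSG00000029512, chromosome 5, 110784488 to 110810097, minus strand) encodes the kinase that starts the process. It stood at 47.3, 49.2 and 51.4 CPM with sgRNA 11, 40.9, 37.01 and 36.1 CPM with sgRNA 15 and 24.6, 24.5 and 24.5 CPM with safe sgRNA. Every library of both Slc12a9 guides lay above every safe library, and sgRNA 11 lay above sgRNA 15 throughout. The rise was 2.01-fold with sgRNA 11 (log2 1.01, SE 0.06, adjusted p = 1.51e-28 in edgeR) and 1.55-fold with sgRNA 15 (log2 0.63, SE 0.06, adjusted p = 1.86e-16 in edgeR). Ulk2, its paralogue, stood at 81.4, 78.7 and 80.5 CPM with sgRNA 11, 63.9, 64.3 and 63.8 CPM with sgRNA 15 and 51.9, 45.2 and 49.8 CPM with safe sgRNA. The order was the same as for Ulk1, with no overlap between groups. Its log2 fold change was 0.71 with sgRNA 11 and 0.38 with sgRNA 15 (edgeR adjusted p = 1.36e-25 and 8.15e-12). Rb1cc1 encodes FIP200, the scaffold of the complex, and Atg13 and Atg101 encode its regulatory subunits. Atg101 averaged 66.1, 55.4 and 49.4 CPM with sgRNA 11, sgRNA 15 and safe sgRNA, and rose by log2 0.42 and 0.17. Atg13 averaged 77.9, 90.4 and 73.7 CPM in the same order, with log2 differences of 0.08 and 0.29, of which only the one with sgRNA 15 was called (edgeR adjusted p = 0.064 and 6.4e-10). Rb1cc1 averaged 40.7, 44.3 and 36.2 CPM and rose by log2 0.16 and 0.28. The call for Rb1cc1 with sgRNA 11 was lost without safe replicate 3 (log2 0.07, edgeR adjusted p = 0.272) and without sgRNA 11 replicate 1 (log2 0.12, edgeR adjusted p = 0.0835), and by DESeq2 (adjusted p = 0.0657). Atg13 with sgRNA 11 was called with scaling by library size only (log2 0.12, edgeR adjusted p = 0.00905) and among genes averaging 5 CPM or more (log2 0.11, edgeR adjusted p = 0.0131).

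Of the 5 genes of the Beclin 1 lipid kinase complexes, 4 rose with sgRNA 11 and 3 with sgRNA 15, and none fell. Atg14 directs the complex to the site where autophagosomes form. Its level was 13.8, 13.9 and 15.4 CPM with sgRNA 11, 12.4, 15.9 and 15.4 CPM with sgRNA 15 and 10.1, 9.80 and 10.7 CPM with safe sgRNA. The 6 libraries of the Slc12a9 guides lay above the 3 safe libraries, and the 2 guides overlapped. It rose by log2 0.49 with sgRNA 11 and 0.51 with sgRNA 15 (edgeR adjusted p = 3.1e-06 and 1.66e-06). Rubcn encodes Rubicon, which holds back canonical autophagy and is needed for LC3-associated phagocytosis in macrophages. It stood at 45.6, 45.3 and 47.4 CPM with sgRNA 11, 46.2, 46.7 and 44.6 CPM with sgRNA 15 and 31.5, 31.2 and 30.4 CPM with safe sgRNA. The guides overlapped each other and neither overlapped safe sgRNA. Rubcn rose by log2 0.57 with sgRNA 11 and 0.56 with sgRNA 15 (SE 0.05 and 0.05, edgeR adjusted p = 1.3e-16 and 3.64e-16). Becn1, the Beclin 1 gene, averaged 58.5, 59.2 and 49.1 CPM with sgRNA 11, sgRNA 15 and safe sgRNA and rose by log2 0.25 and 0.26. The value for Becn1 is uncertain, since 43.9% of its exon length overlaps Cntd1 on the other strand and the strand setting of the counting is not given in the sources used here. Uvrag, an alternative partner of Beclin 1, averaged 108, 99.8 and 101 CPM, with log2 differences of 0.10 and -0.02. Uvrag was called with sgRNA 11 only (edgeR adjusted p = 0.0159), and not without safe replicate 1 (log2 0.07, adjusted p = 0.122) or without sgRNA 11 replicate 2 (log2 0.07, adjusted p = 0.144). DESeq2 did not call it either (adjusted p = 0.0902), and correcting for GC and length moved it to log2 0.02 with sgRNA 11 and -0.11 with sgRNA 15 (edgeR adjusted p = 0.637 and 0.00503). Uvrag shares 17.6% of its exon length with an antisense gene. Nrbf2, a further subunit, averaged 13.2, 13.6 and 13.96 CPM and was called with neither guide (log2 -0.08 and -0.06, edgeR adjusted p = 0.429 and 0.603).

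The 6 genes of membrane supply moved in both directions. With sgRNA 11, 4 rose and 2 fell, and with sgRNA 15, 3 rose and 3 fell. Wipi1 (ENSMUSG00000041895, chromosome 11, 109573331 to 109611967, minus strand) encodes a protein that reads the lipid made by the Beclin 1 complex. Its level was 14.9, 14.4 and 13.1 CPM with sgRNA 11, 11.9, 10.9 and 12.6 CPM with sgRNA 15 and 7.55, 6.92 and 7.07 CPM with safe sgRNA. All 6 libraries of the Slc12a9 guides lay above all safe libraries, with fold changes of 1.96 for sgRNA 11 (log2 0.97, SE 0.10, adjusted p = 1.25e-14 in edgeR) and 1.63 for sgRNA 15 (log2 0.71, SE 0.10, adjusted p = 4.73e-09 in edgeR). Wipi2, the family member that recruits ATG16L1, averaged 76.1, 73.4 and 62.1 CPM with sgRNA 11, sgRNA 15 and safe sgRNA and rose by log2 0.30 and 0.25. Atg2a encodes one of the bridge-like proteins that carry lipid into the growing membrane. It stood at 92.1, 92.8 and 98.6 CPM with sgRNA 11, 75.02, 76.1 and 76.1 CPM with sgRNA 15 and 56.5, 58.7 and 62.2 CPM with safe sgRNA. The 3 groups did not overlap, with sgRNA 11 highest. Atg2a rose by log2 0.68 with sgRNA 11 and 0.36 with sgRNA 15 (edgeR adjusted p = 1.37e-26 and 3.59e-12). Its paralogue Atg2b averaged 47.5, 46.1 and 54.3 CPM and fell by 0.19 and 0.24 on the log2 scale.

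The ATG9 paralogues, which encode the lipid scramblases of the seeding vesicles, differed from each other. For Atg9b (ENSMUSG00000038295, chromosome 5, 24384181 to 24392143, minus strand) the levels were 12.7, 14.4 and 13.4 CPM with sgRNA 11, 18.8, 19.9 and 20.8 CPM with sgRNA 15 and 27.5, 28.6 and 27.96 CPM with safe sgRNA. The groups were fully separate, with sgRNA 11 lowest and safe sgRNA highest. Atg9b fell by 1.06 on the log2 scale with sgRNA 11 (SE 0.07, edgeR adjusted p = 7.95e-23) and by 0.50 with sgRNA 15 (SE 0.07, edgeR adjusted p = 1.53e-09), the largest fall among the members with each guide. The levels of Atg9a (ENSMUSG00000033124, chromosome 1, 75180860 to 75192196, minus strand) were 56.2, 60.8 and 54.9 CPM with sgRNA 11, 43.3, 41.9 and 37.7 CPM with sgRNA 15 and 45.3, 41.9 and 47.2 CPM with safe sgRNA. All sgRNA 11 libraries were above the others, while sgRNA 15 and safe libraries overlapped. Atg9a rose with sgRNA 11 (log2 0.35, SE 0.05, adjusted p = 3.44e-09 in edgeR) and was called lower with sgRNA 15 (log2 -0.12, SE 0.05, adjusted p = 0.0372 in edgeR). The fall with sgRNA 15 was not called by DESeq2 (adjusted p = 0.102), with scaling by library size only (edgeR adjusted p = 0.163), among genes averaging 5 CPM or more (edgeR adjusted p = 0.0539), or without safe replicate 1 (log2 -0.12, edgeR adjusted p = 0.085), safe replicate 3 (log2 -0.10, edgeR adjusted p = 0.125) or sgRNA 15 replicate 3 (log2 -0.09, edgeR adjusted p = 0.186). Exons of Atg9a overlap other genes over 32.6% of their length, chiefly Gm29253 on the same strand, so its counts are uncertain.

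**Figure D2:**
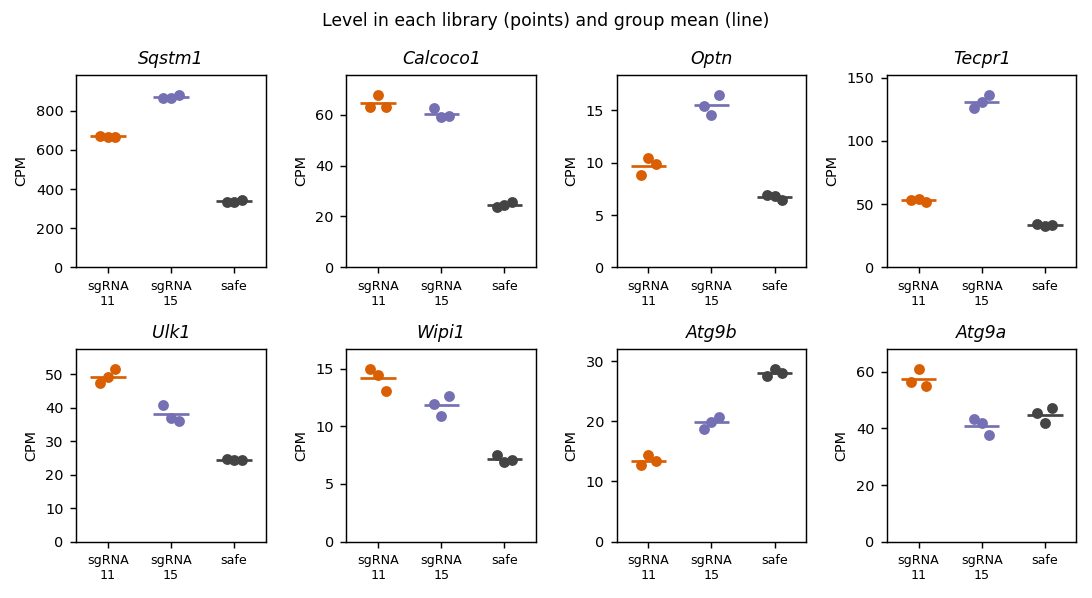
Level in CPM of 8 autophagy genes in each library (points) with group means (lines), each panel with its own axis from 0. Sqstm1, Calcoco1, Optn, Tecpr1, Ulk1 and Wipi1 have all 6 libraries of the Slc12a9 guides above the safe libraries, Atg9b has them below, and Atg9a is higher with sgRNA 11 only.

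Conjugation genes changed little for the most part. Of the 9, 4 rose and 2 fell with sgRNA 11, and 5 rose and 2 fell with sgRNA 15. Atg10, the enzyme that passes ATG12 to ATG5, had the largest change of them. It stood at 4.71, 4.52 and 4.08 CPM with sgRNA 11, 4.88, 3.996 and 4.66 CPM with sgRNA 15 and 2.75, 2.27 and 2.54 CPM with safe sgRNA. The guides overlapped each other but not safe sgRNA, and the rise was log2 0.80 with sgRNA 11 and 0.82 with sgRNA 15 (SE 0.17 and 0.17, edgeR adjusted p = 2.28e-05 and 1.78e-05). Atg10 had the fewest counts of all members, at 45 to 107 per library. Atg7, which activates both ubiquitin-like proteins, averaged 83.8, 97.7 and 75.5 CPM with sgRNA 11, sgRNA 15 and safe sgRNA and rose by log2 0.15 and 0.37, though the first was not called after the GC and length correction (log2 0.05, edgeR adjusted p = 0.243). Atg12 rose by log2 0.26 with sgRNA 11 and 0.37 with sgRNA 15. Its partner Atg5 was called with sgRNA 15 only (log2 0.06 and 0.20, edgeR adjusted p = 0.393 and 0.00139), and Atg16l1, which completes that complex, fell by 0.17 with each guide on the log2 scale. Atg3, the enzyme that attaches ATG8 proteins to lipid, averaged 38.2, 39.8 and 40.3 CPM and was called with neither guide (log2 -0.08 and -0.02, edgeR adjusted p = 0.193 and 0.722).

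The ATG4 proteases, which trim ATG8 proteins and release them from lipid, split. Atg4b, the most active of them toward LC3, averaged 62.7, 61.4 and 54.3 CPM with sgRNA 11, sgRNA 15 and safe sgRNA and rose by log2 0.21 and 0.18. The rise of Atg4b with sgRNA 15 was not called after the GC and length correction (log2 0.09, edgeR adjusted p = 0.0731). Atg4d averaged 33.4, 32.5 and 42.4 CPM and fell by 0.34 and 0.38 on the log2 scale, with 19.3% of its exon length shared with Kri1 on the other strand. Atg4a had log2 differences of -0.03 with sgRNA 11 and 0.08 with sgRNA 15 and passed the test with neither (edgeR adjusted p = 0.802 and 0.411).

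The ATG8 family held 3 genes that rose, 1 that fell and 1 that was not called, the same genes with each guide. Map1lc3b encodes LC3B, the usual marker of autophagosomes. Its level was 111, 113 and 111 CPM with sgRNA 11, 111, 110.5 and 111 CPM with sgRNA 15 and 74.6, 68.3 and 76.2 CPM with safe sgRNA. The guides lay together and well above safe sgRNA, with a rise of 1.53-fold for sgRNA 11 (log2 0.61, SE 0.04, adjusted p = 2.66e-26 in edgeR) and 1.52-fold for sgRNA 15 (log2 0.60, SE 0.04, adjusted p = 8.23e-26 in edgeR). Map1lc3a, which encodes LC3A, stood at 15.2, 17.4 and 17.4 CPM with sgRNA 11, 15.5, 14.1 and 16.7 CPM with sgRNA 15 and 9.14, 10.8 and 10.1 CPM with safe sgRNA. No library of the Slc12a9 guides overlapped a safe one, and it rose by log2 0.73 with sgRNA 11 and 0.62 with sgRNA 15 (edgeR adjusted p = 2.34e-11 and 9.84e-09). Gabarap, the founding member of the other branch, stood at 206, 188 and 191 CPM with sgRNA 11, 224, 219.8 and 218 CPM with sgRNA 15 and 149, 159 and 152 CPM with safe sgRNA. Its 3 groups were separate, with sgRNA 15 highest, and it rose by log2 0.35 with sgRNA 11 and 0.53 with sgRNA 15 (edgeR adjusted p = 7.38e-18 and 5.43e-28). Gabarapl1 moved the other way, at 43.7, 42.9 and 45.4 CPM with sgRNA 11, 50.4, 46.3 and 43.2 CPM with sgRNA 15 and 54.5, 58.8 and 58.5 CPM with safe sgRNA. All 6 libraries of the Slc12a9 guides lay below all 3 safe libraries. It fell by 0.37 with sgRNA 11 and 0.29 with sgRNA 15 on the log2 scale (edgeR adjusted p = 2.74e-10 and 4.03e-07), and 28.3% of its exon length overlaps 1700101I11Rik on the other strand. Gabarapl2 stood at 43.4, 43.01 and 42.3 CPM with sgRNA 11, 46.5, 47.9 and 46.5 CPM with sgRNA 15 and 43.3, 46.6 and 43.7 CPM with safe sgRNA. Its groups overlapped safe sgRNA, and it was called with neither guide (log2 -0.05 and 0.08, edgeR adjusted p = 0.361 and 0.161), except with sgRNA 15 under scaling by library size only (log2 0.12, edgeR adjusted p = 0.0342).

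Levels of different genes were compared per length, as CPM per kb of exon, with all annotated exons of a gene merged. Ranks and shares depend on that annotated length, which was 7517 bases for Map1lc3b, 1844 for Gabarap and 2013 for Gabarapl1. In CPM per kb the 5 ATG8 genes summed to 175 ± 4.12 CPM per kb with sgRNA 11, 191 ± 3.02 CPM per kb with sgRNA 15 and 149 ± 4.89 CPM per kb with safe sgRNA (mean ± SD, n = 3 each). Gabarap took most of the sum, 60.4 ± 1.49% with sgRNA 11, 62.7 ± 0.240% with sgRNA 15 and 55.9 ± 0.480% with safe sgRNA. Gabarapl1 took 12.5 ± 0.449% with sgRNA 11, 12.1 ± 0.758% with sgRNA 15 and 19.1 ± 0.382% with safe sgRNA. Map1lc3b took 8.49 ± 0.257% with sgRNA 11, 7.74 ± 0.102% with sgRNA 15 and 6.53 ± 0.545% with safe sgRNA. Without length scaling the order of Map1lc3b and Gabarapl1 was reversed, at 73.04 and 57.2 CPM with safe sgRNA. Gabarapl2 took 10.55 ± 0.208% with sgRNA 11, 10.59 ± 0.290% with sgRNA 15 and 12.85 ± 0.200% with safe sgRNA. Map1lc3a took 8.06 ± 0.781%, 6.85 ± 0.601% and 5.70 ± 0.296% in the same order. The shares of Gabarapl1 and Gabarapl2 were thus smaller in the libraries of both guides, by more than the spread within any group. Gabarapl2 itself was called with neither guide, and its share fell as the sum grew. Across all members in CPM per kb, Sqstm1 (199, 259 and 100.4 CPM per kb with sgRNA 11, sgRNA 15 and safe sgRNA) and Gabarap (106, 119.7 and 83.2) were the most abundant in every group.

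**Figure D3:**
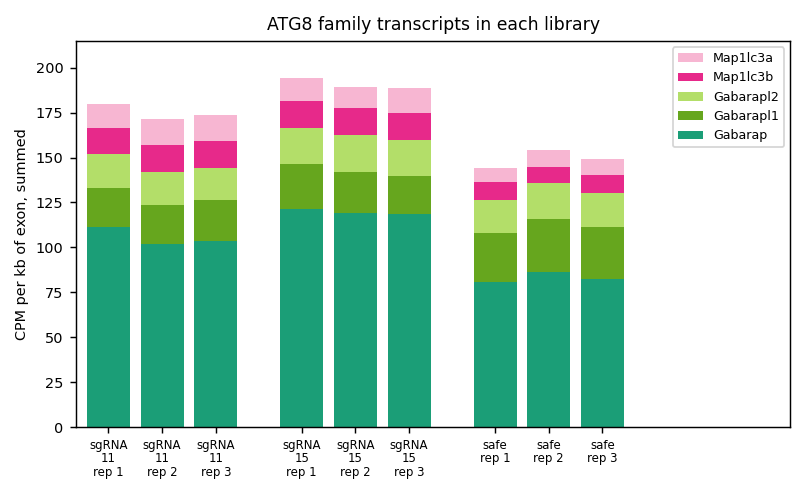
Summed level of the 5 ATG8 genes in each library, in CPM per kb of exon, stacked by gene, with 3 libraries per group. The stacks are taller with sgRNA 11 and sgRNA 15 than with safe sgRNA, while the Gabarapl1 part is smaller.

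Cargo receptors held several of the largest rises among the members. With each guide 5 of the 6 rose, and Tax1bp1 was the exception. Outside the members, 15 further selective receptors and adaptors were tested. Of these, 7 rose and 5 fell with sgRNA 11 (median log2 0.04), and 8 rose and 4 fell with sgRNA 15 (median log2 0.14). Of all tested genes, 33.3% rose and 32.4% fell with sgRNA 11, and 32.2% and 30.7% with sgRNA 15. Sqstm1 (ENSMUSG00000015837, chromosome 11, 50199366 to 50210827, minus strand) encodes p62, which binds ubiquitin and LC3 and is itself destroyed with its cargo. It stood at 672, 667 and 669 CPM with sgRNA 11, 864, 868 and 879.6 CPM with sgRNA 15 and 335, 332 and 344 CPM with safe sgRNA. The groups were far apart, with sgRNA 15 highest and safe sgRNA lowest. The rise was 1.99-fold with sgRNA 11 (log2 0.99, SE 0.02, adjusted p = 1.18e-54 in edgeR) and 2.58-fold with sgRNA 15 (log2 1.37, SE 0.02, adjusted p = 3.6e-65 in edgeR). Exons of Sqstm1 overlap Mrnip on the other strand over 17.3% of their length, and Mrnip averaged 3.76 CPM with sgRNA 11, 2.53 CPM with sgRNA 15 and 2.26 CPM with safe sgRNA. Calcoco1 (ENSMUSG00000023055, chromosome 15, 102706777 to 102722178, minus strand) encodes a receptor known in selective turnover of endoplasmic reticulum and Golgi. Its level was 63.2, 67.6 and 63.03 CPM with sgRNA 11, 62.4, 59.1 and 59.4 CPM with sgRNA 15 and 23.7, 24.5 and 25.7 CPM with safe sgRNA. All sgRNA 11 libraries lay slightly above the sgRNA 15 libraries (not called, log2 -0.10, adjusted p = 0.0967 in edgeR), and both guides lay far above safe sgRNA, at 2.63-fold (log2 1.39, SE 0.05, adjusted p = 1.88e-40 in edgeR) with sgRNA 11 and 2.45-fold (log2 1.29, SE 0.05, adjusted p = 9.35e-38 in edgeR) with sgRNA 15. Optn (ENSMUSG00000026672, chromosome 2, 5020642 to 5064051, minus strand) encodes optineurin, a receptor for bacteria and damaged mitochondria. It stood at 8.80, 10.4 and 9.88 CPM with sgRNA 11, 15.4, 14.6 and 16.5 CPM with sgRNA 15 and 6.95, 6.82 and 6.48 CPM with safe sgRNA. The 3 groups did not overlap, and the rise was log2 0.51 with sgRNA 11 (SE 0.11, edgeR adjusted p = 1.77e-05) and 1.19 with sgRNA 15 (SE 0.10, edgeR adjusted p = 1.83e-18).

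Nbr1 encodes a receptor that works with p62 on ubiquitin-bound protein. It stood at 90.7, 86.6 and 91.6 CPM with sgRNA 11, 95.1, 92.7 and 91.1 CPM with sgRNA 15 and 66.4, 64.5 and 63.6 CPM with safe sgRNA. The guides overlapped and both lay above safe sgRNA, by log2 0.47 with sgRNA 11 and 0.52 with sgRNA 15 (edgeR adjusted p = 1.87e-18 and 9.2e-21). Bnip3l encodes NIX, a mitophagy receptor in the outer mitochondrial membrane. Its level was 67.2, 62.3 and 67.4 CPM with sgRNA 11, 63.4, 61.4 and 63.8 CPM with sgRNA 15 and 43.2, 43.1 and 42.3 CPM with safe sgRNA. It too was higher in all 6 libraries of the Slc12a9 guides, by log2 0.62 with sgRNA 11 and 0.55 with sgRNA 15 (edgeR adjusted p = 3.77e-21 and 2.8e-18). Tax1bp1, a ubiquitin-binding receptor, averaged 145, 167 and 164 CPM with sgRNA 11, sgRNA 15 and safe sgRNA. It fell by 0.17 on the log2 scale with sgRNA 11 (edgeR adjusted p = 4.96e-07) and was not called with sgRNA 15 (log2 0.03, edgeR adjusted p = 0.405), though it was under scaling by library size only (log2 0.07, adjusted p = 0.0443).

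Tecpr1 (ENSMUSG00000066621, chromosome 5, 144194442 to 144223615, minus strand) encodes a protein of lysosomes and autophagosomes that binds the ATG12-ATG5 conjugate. It stood at 53.5, 54.2 and 51.7 CPM with sgRNA 11, 126, 131 and 136 CPM with sgRNA 15 and 34.5, 32.4 and 33.7 CPM with safe sgRNA. No groups overlapped, and the sgRNA 15 libraries were far above the rest. The rise was 1.58-fold with sgRNA 11 (log2 0.66, SE 0.05, adjusted p = 6.47e-22 in edgeR) and 3.89-fold with sgRNA 15 (log2 1.96, SE 0.04, adjusted p = 1.33e-56 in edgeR), the largest change of any member with that guide. Tecpr1 lies on the same chromosome as Slc12a9, 6.86 Mb away. Of the 30 other tested genes within 1 Mb of it, 8 were called between the guides, where 33.5% of all tested genes were. Their median log2 difference, over all 30, was -0.01 for sgRNA 15 against sgRNA 11, with values from -0.55 to 1.14. The neighbouring genes 2900089D17Rik and Bri3, singled out after their values were seen, were called higher with sgRNA 15 as well (log2 1.14 and 0.57, edgeR adjusted p = 0.0475 and 8.65e-25). The span of 2900089D17Rik overlaps that of Bri3, so they are not separate neighbours. Gm15708, which lies within the span of Bri3, was not called (log2 0.52, edgeR adjusted p = 0.424). Whether Tecpr1, 2900089D17Rik and Bri3 moved together for a shared reason was not tested.

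**Figure D4:**
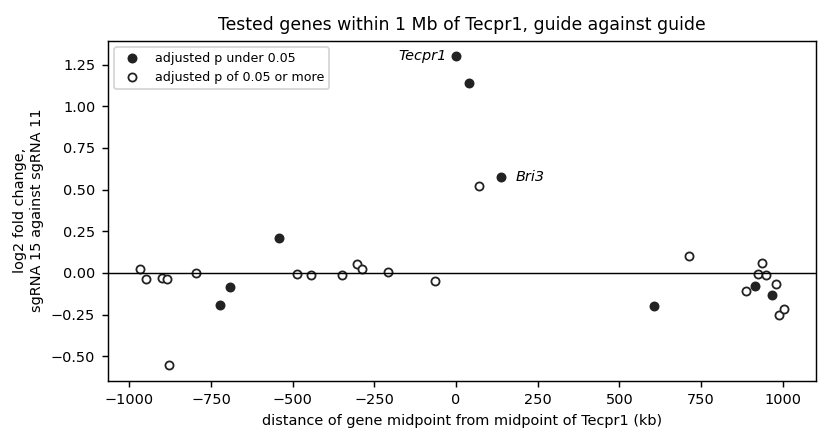
Log2 fold change of sgRNA 15 against sgRNA 11 for Tecpr1 and the 30 other tested genes within 1 Mb, by distance of each gene's midpoint from that of Tecpr1 in kb; filled points have an adjusted p under 0.05. Tecpr1 stands highest, at 1.30, and the next highest values, those of 2900089D17Rik, Bri3 (0.57) and Gm15708, lie on the same side of it. The spans of 2900089D17Rik and Gm15708 overlap that of Bri3.

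The guides also differed from each other. For sgRNA 15 against sgRNA 11, 10 members were higher, 7 were lower and 20 were not called in edgeR, where 33.5% of all tested genes were called, 18% higher and 15.5% lower. Among the 9781 genes averaging 5 CPM or more, 2123 were higher and 2196 lower. The median of the members was log2 0.02 and their median absolute log2 difference was 0.11, against 0.14 over all tested genes. Tecpr1, Optn and Atg9b passed the test with an absolute log2 difference of 0.5 or more, as did 5.26% of tested genes. Tecpr1 differed most, at 2.46-fold (log2 1.30, SE 0.04, adjusted p = 6.35e-45 in edgeR). Optn (log2 0.67, adjusted p = 5.64e-09 in edgeR), Atg9b (log2 0.56, adjusted p = 6.02e-09) and Sqstm1 (log2 0.38, adjusted p = 4.75e-26) were higher with sgRNA 15 too. Lower with sgRNA 15 were Atg9a (log2 -0.47, adjusted p = 7.87e-13 in edgeR), Ulk1 (log2 -0.37, adjusted p = 1.06e-08), Ulk2 (log2 -0.33, adjusted p = 1.05e-09), Atg2a (log2 -0.32, adjusted p = 1.67e-10) and Atg101 (log2 -0.26, adjusted p = 2.06e-06). Wipi1 was lower as well (log2 -0.27, edgeR adjusted p = 0.0187), but not without sgRNA 11 replicate 1 (log2 -0.23, edgeR adjusted p = 0.0889) or sgRNA 15 replicate 2 (log2 -0.21, edgeR adjusted p = 0.122), nor by DESeq2 (adjusted p = 0.0834). Atg7, Atg13, Tax1bp1 and Gabarap were higher with sgRNA 15 by log2 0.22, 0.21, 0.20 and 0.18. Calls for Uvrag (log2 -0.11), Atg5 (log2 0.15) and Gabarapl2 (log2 0.13) were lost without single libraries. Uvrag lost its call without sgRNA 11 replicate 2 (log2 -0.08, edgeR adjusted p = 0.105). Atg5 lost it without safe replicate 1, sgRNA 11 replicates 1 or 2, or sgRNA 15 replicates 1 or 2 (log2 0.10 to 0.15, edgeR adjusted p = 0.0512 to 0.24). Gabarapl2 lost it without any of the 6 libraries of the Slc12a9 guides (log2 0.11 to 0.14, edgeR adjusted p = 0.0539 to 0.15). DESeq2 called neither Atg5 nor Gabarapl2 between the guides (adjusted p = 0.12 and 0.0962), and neither was called with no filter on low counts (edgeR adjusted p = 0.12 and 0.113) or after the GC and length correction (edgeR adjusted p = 0.201 and 0.0829). Atg5 also lost its call in a fit of the compared groups alone (edgeR adjusted p = 0.0515).

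**Figure D5:**
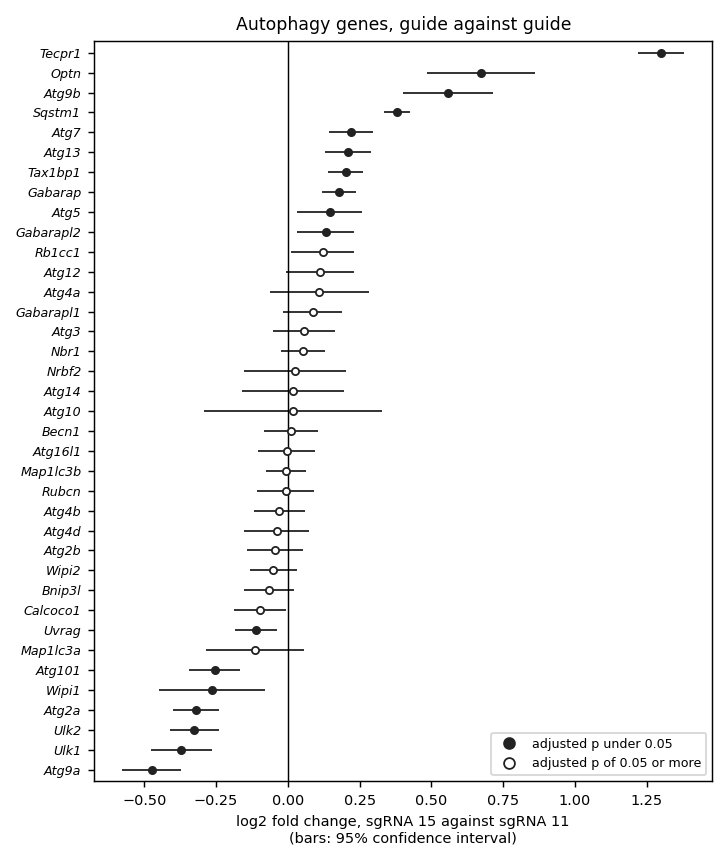
Log2 fold change of sgRNA 15 against sgRNA 11 for each of the 37 autophagy genes, ordered by value; bars are 95% confidence intervals and open points have an adjusted p of 0.05 or more. The 10 filled points right of 0 are led by Tecpr1 at 1.30 and the 7 left of 0 by Atg9a at -0.47.

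Further genes of the pathway were taken from a list of 34, of which 32 had enough counts. With sgRNA 11, 16 rose and 11 fell, and with sgRNA 15, 20 rose and 8 fell, or 13 and 10 after the GC and length correction. Between the guides, 8 were higher and 3 lower with sgRNA 15, or 7 and 7 after that correction. Of all tested genes, 33.3% rose and 32.4% fell with sgRNA 11, and 32.2% and 30.7% with sgRNA 15. Between the guides, 18% of all tested genes were higher and 15.5% lower. With both guides 16 of the further genes rose and 8 fell, against 26% and 25.7% of all tested genes. Their median log2 fold change was 0.15 with each guide. Pink1, a kinase that acts in mitophagy, averaged 40.97, 31.9 and 19.6 CPM with sgRNA 11, sgRNA 15 and safe sgRNA (log2 1.07 and 0.72). Retreg1, a receptor for endoplasmic reticulum, rose by log2 0.60 and 0.60, Atg4c by 0.50 and 0.61, and Wdr45, a relative of the WIPI proteins whose exons overlap other genes over 24.7% of their length, by 1.06 and 0.59. Stbd1, a glycogen receptor, fell by 0.60 and 0.62 on the log2 scale. Tmem41b, a lipid scramblase of the endoplasmic reticulum, fell by 0.63 and 0.36.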

How the data were processed

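Polyadenylated RNA, with ribosomal RNA removed, was sequenced, per the labels' protocols. The deposited values are read counts per gene, made by the authors with STAR and HTSeq on mm10, per the submitters' processing notes; for versions, annotation and strand setting the value is not given in the sources used here. HTSeq's tallies of unassigned reads stayed out of library sizes and tests, and 79.3 to 80.7% of each table's reads were assigned to genes. Reads that are ambiguous or align to several places are not counted, so overlapping genes and close copies are undercounted. Identifiers, positions and exon lengths came from GENCODE M21, and a gene is called uncertain where 10% or more of its exons overlap other genes.

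Samples were grouped by the guide in their labels. Genes were kept by filterByExpr (minimum count 10), scaled by TMM (factors 0.979 to 1.02) and fitted over all 9 libraries (6 residual degrees of freedom) with the robust quasi-likelihood model of edgeR 4.0.16 in R 4.3.3. Tests were 2-sided, with Benjamini-Hochberg adjustment over the 13453 tested genes within each contrast and a threshold of 0.05. No replicate pair agreed within sampling noise (chi-square per degree of freedom 1.76 to 6.83). The members and lists were chosen with earlier results of these data known. Values in every library are given for members called with either guide at an absolute log2 fold change of at least 0.5, members called in opposite directions, and the ATG8 genes; other autophagy genes are named if called the same way with both guides at that size, with the smallest p in each direction, except for a gene that is not reported here. On simulated counts for sgRNA 11 against safe sgRNA over 13231 genes, 73.1% of 1.2-fold, 97.0% of 1.5-fold and 100% of 2-fold changes were recovered, and 20 of 13031 unchanged genes were called. Only 67, 67 and 66 genes were changed at these sizes, all averaging 5 CPM or more, up and down alike. In the data 65.8% of tested genes were called with sgRNA 11, so these rates do not carry over to them. Alternatives were DESeq2 1.42.0, limma-voom (limma 3.58.1), size factors by relative log expression, library size only, a GC and length correction, all genes with a count, genes averaging 5 CPM or more, a replicate block, only the groups compared, a minimum 1.2-fold change, and each library left out.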

Additional observations from a re-analysis of the deposited data

Results flagged for a closer look

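For 17 of the 37 members the effects of the 2 guides, each set against the same safe libraries, differed by edgeR's test of sgRNA 15 against sgRNA 11, where 33.5% of all tested genes were called. Among the 9781 genes averaging 5 CPM or more, 2123 were higher and 2196 lower in that test. The median absolute log2 difference of the members was 0.11, against 0.14 over all tested genes. All tested genes include those averaging under 5 CPM. The medians therefore do not show whether members differed more or less than genes of like level. The log2 difference was positive for Tecpr1 (1.30), Optn (0.67), Atg9b (0.56), Sqstm1 (0.38), Atg7 (0.22), Atg13 (0.21), Tax1bp1 (0.20), Gabarap (0.18), Atg5 (0.15) and Gabarapl2 (0.13). It was negative for Atg9a (-0.47), Ulk1 (-0.37), Ulk2 (-0.33), Atg2a (-0.32), Wipi1 (-0.27), Atg101 (-0.26) and Uvrag (-0.11). For Atg9b a positive value means a smaller fall with sgRNA 15. What sets the guides apart was not tested.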

How the results depend on the processing

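Leaving out 1 library at a time gave 30 to 31 members called with sgRNA 11 (24 to 25 higher, 6 lower), 30 to 31 with sgRNA 15 (25 higher, 5 to 6 lower), 30 to 32 for the mean of guides and 14 to 17 for sgRNA 15 against sgRNA 11 (8 to 10 higher, 6 to 8 lower). A required change of 1.2-fold lowered these counts, by its construction, to 20 with sgRNA 11 (2 lower), 20 with sgRNA 15 (2 lower), 19 for the mean of guides and 5 between the guides (4 higher, 1 lower). Under it the other autophagy genes had 6 higher and 5 lower with sgRNA 11, 6 higher and 4 lower with sgRNA 15, and 1 higher and 0 lower between the guides. Of all 13453 tested genes, 2617 were then higher and 2364 lower with sgRNA 11, and 2394 and 2022 with sgRNA 15. The same counts were 2559 and 2242 for the mean of guides, and 428 and 356 between the guides. The GC and length correction gave 13 other genes higher with sgRNA 15, against 20, and 7 lower between the guides, against 3, and the cause was not tested. The numbers of replicates did not pair libraries (correlations of same-numbered deviations -0.01 to 0.06), and with the replicate block 31, 31, 32 and 17 members were called in the 4 contrasts. The Gabarapl1 share stood -6.76 percentage points from safe sgRNA for the mean of guides, -6.91 to -6.54 with 1 library left out, and -6.25 without length scaling, chosen after seeing the data. Signs turned only for values that were not called: Atg13 with sgRNA 11 (-0.015 with the GC and length correction), Atg4a with sgRNA 11 (0.0061 with library size only, 0.030 with the correction, -0.057 to 0.0028 with 1 library left out), Uvrag with sgRNA 15 (0.023 with library size only), Atg3 with sgRNA 15 (0.015 with library size only, -0.078 to 0.011 with 1 library left out) and Slc12a9 with sgRNA 15 (-0.059 with the correction, -0.016 to 0.11 with 1 library left out). Depth limits Atg10 and the other low genes most.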

Other observations

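In the wider list, 2 of the 32 tested genes were called in opposite directions with the 2 guides, as were 1.88% of all tested genes. These were Plekhm1 and Rab7, which act where autophagosomes meet lysosomes. Plekhm1 fell by 0.32 on the log2 scale with sgRNA 11 and rose by 0.16 with sgRNA 15 (edgeR adjusted p = 1.07e-15 and 1.42e-06). Rab7 fell by 0.12 with sgRNA 11 and rose by 0.08 with sgRNA 15 (edgeR adjusted p = 7.8e-05 and 0.0131). Among genes whose exons overlap members, Ankzf1 beside Atg9a rose with both guides (log2 0.52 and 0.41), as Atg9a did with sgRNA 11 only, and Mrnip beside Sqstm1 rose with sgRNA 11 (log2 0.71, edgeR adjusted p = 7.92e-04) and had a log2 difference of 0.17 with sgRNA 15 (edgeR adjusted p = 0.496).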
